A study of Danio rerio with 13 samples.

Results

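The genes described here make, fold, export and crosslink collagen in zebrafish larvae. They were taken from the deposited count table by symbol, as the genes whose names begin with those of the collagen hydroxylases, their glycosyltransferases and chaperones, the procollagen export and propeptide proteins, SPARC, the lysyl oxidases and the transglutaminases, and that had a count in at least 3 libraries. This rule found 68 genes of 32417 entries, each with 1 entry, and 63 of the 68 passed the filter on low counts. Because the rule reads names only, it also took genes that are not known to act on collagen. Of these, 6 were set apart, namely bmp10, bmp10l, bmp15, bmp16, loxhd1a and loxhd1b. The creb3l3 genes and part of the transglutaminases, described below, are not known for collagen either. They stayed in their roles and in all counts. The term collagen genes below means all genes taken by this rule.

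The series compares larvae with and without the aldehyde dehydrogenase gene aldh3b1, and larvae given 2-HD, by RNA sequencing of whole larvae. Every library came from the Tg(fli1:EGFP) line, in which the fli1 promoter drives EGFP in endothelial cells. Wild-type larvae without treatment gave 5 libraries, untreated larvae labelled aldh3b1 -/-, from a CRISPR line, gave 3, and wild-type larvae with 2-HD gave 5. What 2-HD stands for is not written out, nor are a dose, a treatment time, a vehicle, the larval age, the clutch or the number of larvae per library. Whether replicate libraries are separate pools of larvae is not stated either, and a p-value here reflects the spread among these libraries alone, which may be technical.

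A collagen chain is made in the endoplasmic reticulum (ER), where prolyl 4-hydroxylase, the prolyl 3-hydroxylase complex and the lysyl hydroxylases modify it while it is still unfolded, and glycosyltransferases add sugars to hydroxylysine. Chaperones such as Hsp47 and the FK506-binding proteins help the chains fold into a triple helix, and large carriers take procollagen to the Golgi. Outside the cell, proteases of the Bmp1 family trim the propeptides, and lysyl oxidases then crosslink the fibrils that give skin, bone, tendon and the notochord sheath their strength.

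Library totals ran from 17975289 to 19009200 counts in wild type, from 19066393 to 19332225 in the knockout and from 19339056 to 19482661 with 2-HD. Levels are given as CPM, the count of a gene relative to its scaled library size, and a gene without a count could still stand at up to 3 counts, or 0.148 to 0.173 CPM, a limit for counting error only. The mRNA of the targeted gene did not mark the knockout, since aldh3b1 stood at 6.10 ± 1.22 CPM in wild type (SD, n = 5) and at 5.19 ± 0.608 CPM in the libraries labelled knockout (n = 3), a log2 difference of -0.23 with an edgeR adjusted p of 0.474. Reads outside a small lesion say nothing about the protein, so the knockout label was not checked by this. With 2-HD the same gene stood at 10.2 ± 1.99 CPM. On the second principal component, wild-type library 14 and 2-HD library 1 lay at -41.59 and -53.84, and the other 11 lay between -4.355 and 24.31. Whether reads that map to several paralogues were counted is not given in the sources used here, so values of close pairs such as p4ha1a and p4ha1b, or of the tgm1-like genes, are uncertain.

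Most of these genes passed the test below as higher with 2-HD, and a few did in the knockout. The knockout group had fewer libraries, and the part of this in the counts was not tested. The words rose and fell are kept for genes where edgeR's quasi-likelihood test, fitted to all genes and libraries, gave a Benjamini-Hochberg adjusted p under 0.05. With 2-HD 37 of the 63 tested genes rose and 1, sparcl1, fell, against 22.7% of all 22158 tested genes that rose and 19.7% that fell, 42.4% in all. Their median log2 fold change was 0.36, and that of all tested genes was 0.02. Libraries of the 2-HD and wild-type groups did not overlap for 29 genes that were higher with 2-HD and 1 that was lower, where 13.5% and 12.2% of all genes stood apart in the same directions. When libraries were scaled by their totals alone, the median of all genes moved to 0.12 with 2-HD, 42 of the genes rose and 1 fell, and the split over all genes was 6569 higher to 3228 lower in place of 5030 to 4368. In bulk libraries of whole larvae, more cells of a type and more RNA per cell cannot be told apart, and the changes below are read with that limit.

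In the knockout 7 of the 63 rose, which was 11.1%, and 0 fell, against 4.10% of all tested genes that rose and 1.86% that fell, 5.97% in all. The 7 were p3h4, colgalt1, fkbp10b, creb3l3a, creb3l3l, pcolcea and tgm1l3. Of these, creb3l3a and creb3l3l are of a kind not known for collagen, and tgm1l3 is a tgm1-like transglutaminase. Fitted values were positive for 49 of the 63, beside 11130 of all 22158 tested genes. At an unadjusted p under 0.05 there were 20 higher and 0 lower by edgeR, beside 2980 and 2508 of all 22158 tested genes. With 2-HD the same limit gave 39 higher and 4 lower, beside 5918 and 5185 of all tested genes. The adjustment was made within each comparison, so calls do not share 1 limit on the unadjusted p. By edgeR, loxl1 was called with 2-HD at an unadjusted p of 0.0207, and creb3l2 was not called in the knockout at 0.00416. DESeq2 called 9 higher and 0 lower, beside 1348 and 1058 of all tested genes. The median was 0.25 against 0.00 over all tested genes, and library totals alone gave 10 higher, with all genes split 1543 to 202 in place of 909 to 413. The libraries stood apart for 10 genes, all higher in the knockout, where 7.45% of all genes stood apart higher and 8.01% lower. The count of 7 changed when single libraries were left out. It was 0 without knockout library 3, 0 without knockout library 7 and 9 without knockout library 2. Over all genes these fits called 3, 4 and 1650, in place of 1322. Without knockout library 3 or 7 the fitted values of the 7 genes stayed positive, from 0.26 to 1.44. The count was 3 without wild-type library 10, 4 without wild-type library 13 and 12 without wild-type library 5. A fit of these 2 groups alone called 0. Both comparisons use the same 5 wild-type libraries, so their values are set side by side below and are not independent of each other. Of the 7 genes that rose in the knockout, 5 also rose with 2-HD, and colgalt1 and creb3l3l were called in the knockout alone.

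**Figure D1:**
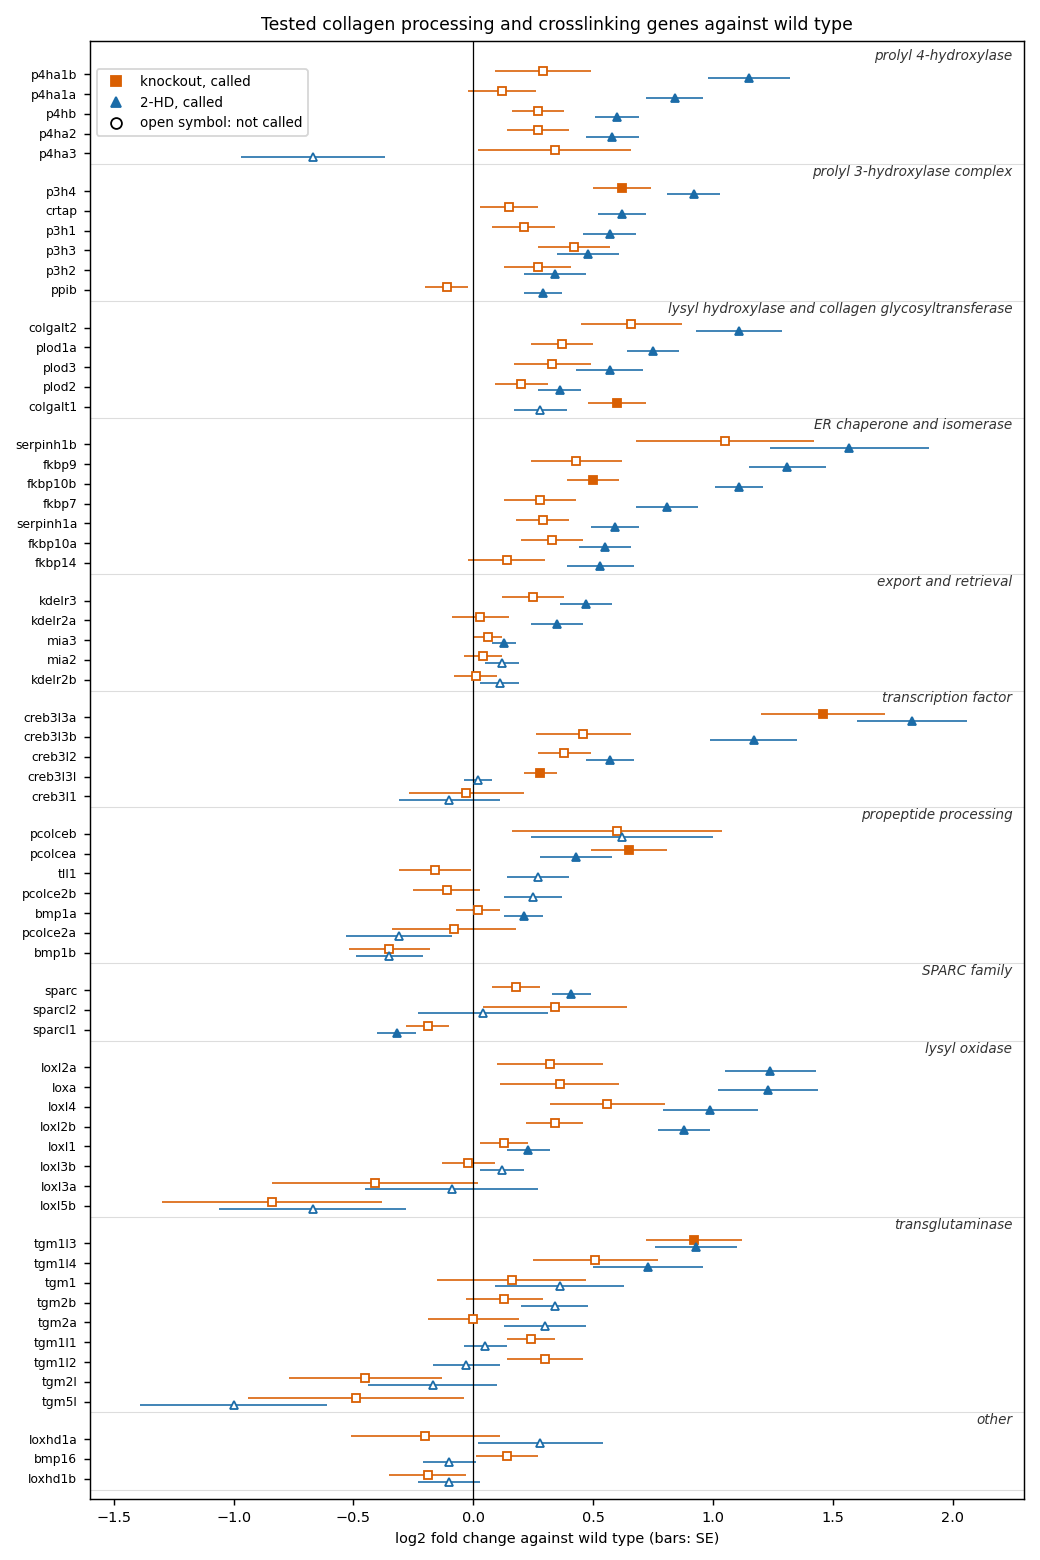
Fitted log2 fold change against wild type (x axis, bars are the SE) of the 63 tested genes, grouped by role, in the knockout (squares, 3 libraries) and with 2-HD (triangles, 5 libraries), with filled symbols for genes called at an adjusted p under 0.05. The chaperone and prolyl 3-hydroxylase groups are filled throughout for 2-HD, and 7 squares are filled for the knockout.

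Prolyl 4-hydroxylase makes the 4-hydroxyproline that keeps the collagen helix stable at body temperature, with catalytic alpha subunits from the p4ha genes and a beta subunit, protein disulfide isomerase, from p4hb. Of its 5 genes 4 rose with 2-HD (p4ha1a, p4ha1b, p4ha2 and p4hb), which was 80% beside 22.7% of all tested genes. In the knockout 0 were called, 1 had an unadjusted p under 0.05 and DESeq2 called 0. In every list of values that follows, wild-type libraries stand in the order 10, 13, 14, 3 and 5, the knockout libraries in the order 2, 3 and 7, and the 2-HD libraries in the order 1 to 5. The alpha subunit gene p4ha1a was at 6.53, 6.91, 9.07, 7.47 and 7.07 CPM in wild type, 6.56, 8.82 and 8.81 CPM in the knockout, and 16.1, 11.8, 13.2, 12.1 and 13.4 CPM with 2-HD. The 2-HD libraries were all above the others, and the gene rose 1.80-fold over wild type (log2 0.84 ± 0.12 SE, edgeR adjusted p = 0.000125). Its paralogue p4ha1b was at 5.70, 8.19, 7.45, 9.19 and 9.58 CPM, then 11.0, 10.7 and 7.77 CPM, then 16.3, 15.4, 25.5, 16.0 and 16.0 CPM. Again no 2-HD library overlapped either group, library 3 was the highest by far, and the rise was 2.22-fold (log2 1.15 ± 0.17, adjusted p = 0.000145). The knockout differed from wild type by 0.12 ± 0.14 in p4ha1a and 0.29 ± 0.20 in p4ha1b on the log2 scale, and neither passed the test. The beta subunit gene p4hb, which also serves as a general disulfide isomerase, was at 103, 112, 115, 104 and 144 CPM in wild type, 139, 139 and 141 CPM in the knockout, and 154, 169, 200.1, 166 and 186 CPM with 2-HD. Its 2-HD libraries lay above all others, at 1.51-fold over wild type (log2 0.60 ± 0.09, adjusted p = 0.000231). The fifth gene, p4ha3, was lower with 2-HD by value only, at 1.09 ± 0.421 CPM against 1.74 ± 0.688 CPM (log2 -0.67, adjusted p = 0.0843), with overlapping libraries.

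The prolyl 3-hydroxylase complex modifies single prolines of the chains and holds them for folding. In mammals its core is P3H1 with CRTAP and cyclophilin B, the product of ppib, and loss of any of these causes recessive osteogenesis imperfecta in people. All 6 genes of the group rose with 2-HD, with log2 fold changes from 0.29 to 0.92, beside 22.7% of all tested genes. In the knockout 1, p3h4, also rose, which was 16.7% beside 4.10%. The product of p3h4, Sc65, has no hydroxylase activity of its own and in mice works with lysyl hydroxylase 1. It was at 3.85, 4.18, 4.22, 3.92 and 5.17 CPM in wild type, 6.35, 6.87 and 6.52 CPM in the knockout, and 8.10, 7.84, 8.97, 8.54 and 6.84 CPM with 2-HD. All knockout and 2-HD libraries were above the wild-type ones, and 2-HD library 5 lay among the knockout values. The rise was 1.54-fold in the knockout (log2 0.62 ± 0.12, adjusted p = 0.0173) and 1.89-fold with 2-HD (0.92 ± 0.11, adjusted p = 5.68e-05). The scaffold gene crtap was at 13.0, 14.0, 11.3, 12.5 and 16.9 CPM, then 15.2, 15.1 and 14.7 CPM, then 17.8, 20.1, 22.9, 21.8 and 21.8 CPM. Knockout libraries lay inside the wild-type range and 2-HD libraries above it, with a rise of 0.62 ± 0.10 with 2-HD (adjusted p = 0.000313). Cyclophilin B, from ppib, is a proline isomerase and was at 187, 196, 199, 165 and 227 CPM in wild type, 174, 182 and 184 CPM in the knockout, and 217, 233, 244, 252 and 246 CPM with 2-HD. One wild-type library reached into the 2-HD range, the rise was 0.29 ± 0.08 (adjusted p = 0.00707), and the knockout stood at -0.11 ± 0.09 (adjusted p = 0.46). The rises of p3h1 and p3h3 with 2-HD were 0.57 and 0.48, and that of p3h2 was 0.34, a call that was lost in 13 of 21 alternative settings.

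Lysyl hydroxylases, from the plod genes, make the hydroxylysine that later carries sugars and crosslinks, and the colgalt genes encode the galactosyltransferases that start the sugar chain. Of these 5 genes 4 rose with 2-HD (plod1a, plod2, plod3 and colgalt2), which was 80% beside 22.7% of all tested genes. In the knockout 1, colgalt1, rose, which was 20% beside 4.10%. Lysyl hydroxylase 1, from plod1a, acts on the helical part of the chain. It was at 14.0, 12.4, 12.5, 13.8 and 16.9 CPM in wild type, 15.3, 19.7 and 18.9 CPM in the knockout, and 23.8, 22.5, 27.2, 23.8 and 19.5 CPM with 2-HD. All 2-HD libraries were above wild type, at 1.68-fold (log2 0.75 ± 0.11, adjusted p = 0.000153), and the knockout stood at 0.37 ± 0.13 (adjusted p = 0.0881). The plod3 product has both hydroxylase and glycosyltransferase activity in mammals, and zebrafish larvae need the gene for motor axon growth. Its values were 33.6, 38.8, 25.6, 41.0 and 44.2 CPM, then 47.2, 46.8 and 44.4 CPM, then 40.3, 60.9, 58.3, 60.3 and 52.8 CPM. Here 2-HD library 1 lay inside the wild-type range, the rise with 2-HD was 0.57 ± 0.14 (adjusted p = 0.00382), and the knockout libraries lay just above wild type without passing the test (0.33 ± 0.16, adjusted p = 0.204).

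Each of the glycosyltransferase paralogues was called in 1 of the comparisons with wild type, and the difference between the paralogues was not tested. The values of colgalt1 were 5.47, 4.91, 4.97, 4.35 and 4.68 CPM in wild type, 7.74, 8.36 and 6.10 CPM in the knockout, and 6.35, 6.46, 5.68, 5.48 and 5.70 CPM with 2-HD. The knockout libraries lay above wild type, and the 2-HD libraries did so narrowly. The gene rose 1.52-fold in the knockout (log2 0.60 ± 0.12, edgeR adjusted p = 0.0196), and with 2-HD it stood at 0.28 ± 0.11 with an adjusted p of 0.0513. The difference between knockout and 2-HD, 0.32 ± 0.12, did not pass either (adjusted p = 0.123), so colgalt1 is not shown to differ between them. For colgalt2 the values were 3.91, 4.68, 3.58, 4.14 and 4.24 CPM, then 4.61, 7.38 and 7.56 CPM, then 11.4, 9.51, 7.78, 9.90 and 5.80 CPM. Every 2-HD library was above wild type and the gene rose 2.16-fold (log2 1.11 ± 0.18, adjusted p = 0.000293), while knockout library 2 lay inside the wild-type range and the knockout stood at 0.66 ± 0.21 (adjusted p = 0.0682). In 21 alternative settings the knockout call of colgalt1 was lost in 4, and colgalt1 was called with 2-HD in 5 and colgalt2 in the knockout in 4.

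The chaperones and isomerases of collagen in the ER were the group with the highest median with 2-HD, 0.81 on the log2 scale. All 7 rose (0.53 to 1.57), beside 22.7% of all tested genes. In the knockout all 7 fitted values were positive, from 0.14 to 1.05. Of these, 1, fkbp10b, passed the test, which was 14.3% beside 4.10%. Hsp47, from the serpinh1 pair, binds the folded helix and travels with procollagen to the Golgi. The serpinh1b values were 26.9, 12.5, 10.7, 44.8 and 50.3 CPM in wild type, 69.0, 55.3 and 56.1 CPM in the knockout, and 70.9, 85.8, 107, 82.7 and 84.8 CPM with 2-HD. The 3 groups did not overlap, yet the wild-type libraries alone spread from 10.7 to 50.3 CPM. With 2-HD the gene rose 2.97-fold (log2 1.57 ± 0.33, adjusted p = 0.00188). The knockout stood at 1.05 ± 0.37 and was not called (adjusted p = 0.0993), and without wild-type library 5 its adjusted p was 0.0425, with values from 0.0425 to 0.762 over the alternatives. The other copy, serpinh1a, rose 1.51-fold with 2-HD, and its wild-type libraries spread only from 15.1 to 22.5 CPM.

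The FK506-binding proteins of this group are proline isomerases of the ER, and FKBP10, also called FKBP65, is in mammals needed for crosslinking hydroxylation at the chain ends. The zebrafish gene fkbp10b was at 6.53, 7.47, 8.09, 6.23 and 6.75 CPM in wild type, 9.22, 9.64 and 11.0 CPM in the knockout, and 13.8, 15.8, 14.1, 17.0 and 15.2 CPM with 2-HD. The 3 groups formed 3 separate steps. The rise was 1.42-fold in the knockout (log2 0.50 ± 0.11, adjusted p = 0.0245) and 2.16-fold with 2-HD (1.11 ± 0.10, adjusted p = 3.76e-05). For fkbp9 the values were 8.82, 10.3, 7.68, 8.28 and 11.4 CPM, then 12.9, 13.2 and 11.6 CPM, then 14.2, 23.0, 28.9, 25.4 and 24.0 CPM. Its groups did not overlap either, 2-HD library 1 was well below the other 2-HD libraries, and the rise with 2-HD was 2.48-fold (1.31 ± 0.16, adjusted p = 6.29e-05). The knockout stood at 0.43 ± 0.19 (adjusted p = 0.167). The values of fkbp7 were 7.20, 7.86, 6.64, 6.61 and 9.03 CPM, then 8.97, 9.59 and 8.66 CPM, then 9.39, 13.0, 15.4, 14.3 and 13.6 CPM, with a rise of 0.81 ± 0.13 with 2-HD (adjusted p = 0.000235). All 2-HD libraries of fkbp7 were above wild type, and library 1 was again the lowest of its group and reached into the knockout range. The remaining genes, fkbp10a and fkbp14, rose by 0.55 and 0.53 with 2-HD.

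**Figure D2:**
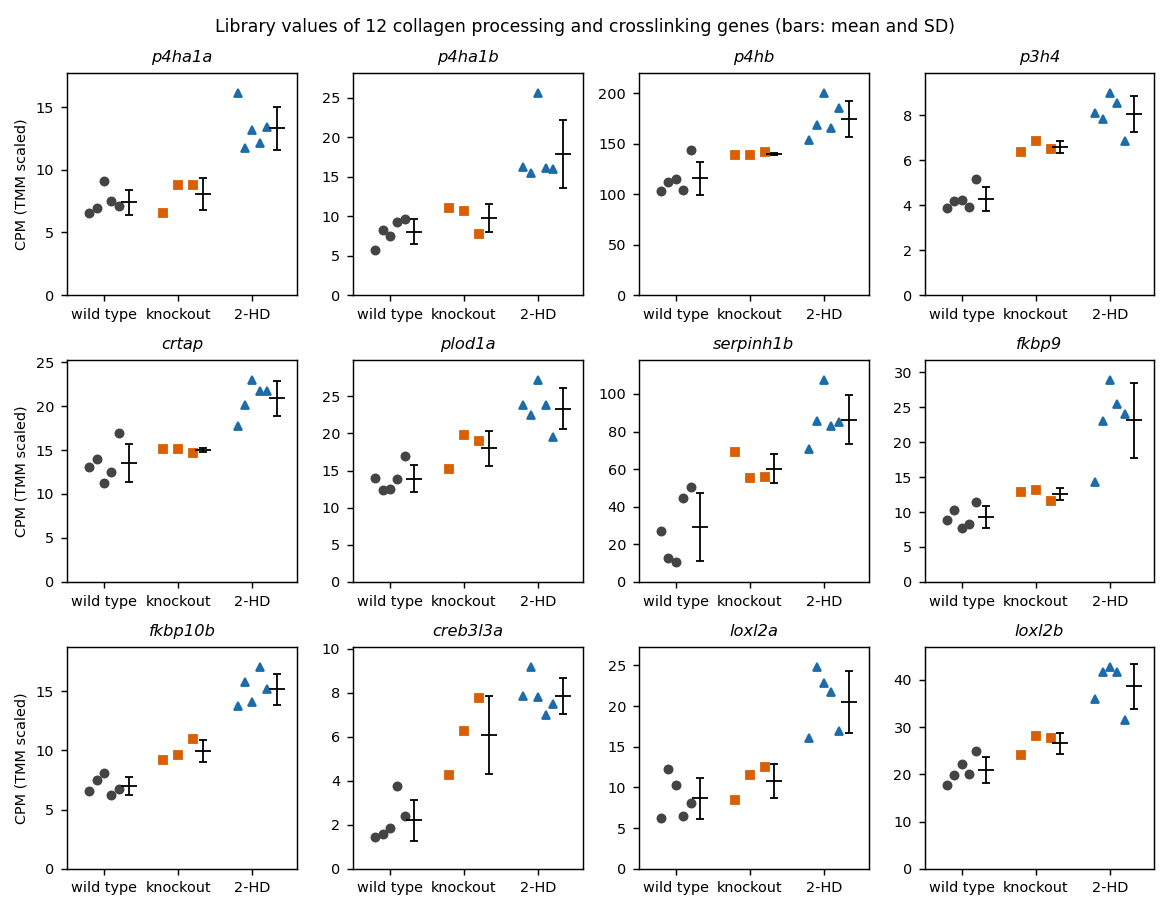
CPM (y axis, linear from 0) of 12 genes in each library of the 3 groups, in the library order given in the text, with the group mean and SD as a bar at the right of each group. The 12 genes were picked by hand, and in each the 2-HD libraries stand above all wild-type libraries. That held for 29 of the 63 tested genes and for 13.5% of all tested genes. Genes with overlapping groups, such as ppib, plod3, pcolcea and tgm2a, are not drawn. The wild-type libraries of serpinh1b spread from 10.7 to 50.3 CPM.

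Genes of procollagen export and of the return of ER proteins changed by small amounts. Of the 5, mia3, kdelr2a and kdelr3 rose with 2-HD, which was 60% beside 22.7% of all tested genes. Their log2 fold changes were 0.13 to 0.47. In the knockout 0 were called by edgeR, 0 by DESeq2 and 0 at an unadjusted p under 0.05. The product of mia3, Tango1, loads procollagen into carriers. It was at 53.0, 51.7, 50.4, 51.8 and 53.7 CPM in wild type, 54.0, 55.8 and 53.3 CPM in the knockout, and 56.7, 57.3, 58.7, 55.6 and 57.5 CPM with 2-HD. The 2-HD libraries lay above wild type with little spread within groups, and a log2 rise of 0.13 ± 0.05 passed the test (edgeR adjusted p = 0.0421), but that call was lost in 18 of 21 alternative settings. KDEL receptors carry escaped ER proteins back from the Golgi, and kdelr2a was at 41.3, 47.5, 50.5, 41.2 and 61.9 CPM, then 52.3, 49.4 and 46.4 CPM, then 54.6, 58.4, 67.1, 60.3 and 67.5 CPM. Wild-type library 5 reached into the 2-HD range, and the rise was 0.35 ± 0.11 (adjusted p = 0.0158). For kdelr3 the values were 8.15, 7.53, 6.06, 6.83 and 9.14 CPM, then 7.79, 9.69 and 9.49 CPM, then 9.70, 10.0, 11.8, 10.3 and 10.7 CPM, with 2-HD above all others (0.47 ± 0.11, adjusted p = 0.00385). The genes mia2 and kdelr2b stood at 0.12 and 0.11 with 2-HD and were not called.

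The creb3l genes encode transcription factors held in the ER membrane, and the 5 found here are of more than 1 kind. In vertebrates creb3l1 and creb3l2 are known for secretory and collagen export genes, and creb3l2 mutant zebrafish have a cartilage defect. The creb3l3 genes are known in mammals from liver and intestine, for lipid and acute-phase genes, and not for collagen. With 2-HD 3 of the 5 rose (creb3l2, creb3l3a and creb3l3b), which was 60% beside 22.7% of all tested genes. In the knockout 2 rose (creb3l3a and creb3l3l), which was 40% beside 4.10%. The collagen-linked creb3l1 was not called in either, at 0.03 below and 0.10 below wild type on the log2 scale in knockout and 2-HD. The level of creb3l2 was 20.8 ± 1.75 CPM in wild type, 27.0 ± 4.81 CPM in the knockout and 30.9 ± 2.21 CPM with 2-HD, a rise of 0.57 ± 0.10 with 2-HD (adjusted p = 0.000393) and a knockout difference of 0.38 ± 0.11 that was not called (adjusted p = 0.0573).

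Among the creb3l3 paralogues, creb3l3a moved most of all 63 genes in both comparisons with wild type. It was at 1.45, 1.56, 1.85, 3.76 and 2.39 CPM in wild type, 4.25, 6.25 and 7.77 CPM in the knockout, and 7.84, 9.17, 7.83, 6.98 and 7.48 CPM with 2-HD. No wild-type library reached the knockout or 2-HD values. The rise was 2.75-fold in the knockout (log2 1.46 ± 0.26, adjusted p = 0.013) and 3.55-fold with 2-HD (1.83 ± 0.23, adjusted p = 6.71e-05). For creb3l3b the values were 6.09, 5.07, 4.45, 8.65 and 5.71 CPM, then 7.53, 7.18 and 10.0 CPM, then 10.3, 15.1, 16.6, 13.5 and 12.0 CPM. Only 2-HD stood apart, with a rise of 1.17 ± 0.18 (adjusted p = 0.000173) beside 0.46 ± 0.20 in the knockout (adjusted p = 0.179). The paralogue creb3l3l was at 87.1, 80.0, 85.6, 92.7 and 86.1 CPM in wild type, 103, 103 and 108 CPM in the knockout, and 98.1, 87.1, 88.0, 84.3 and 80.9 CPM with 2-HD. Its knockout libraries lay above all others, with a rise of 0.28 ± 0.07 over wild type (adjusted p = 0.0387), and 2-HD stood at 0.02 ± 0.06. The knockout call was lost in 11 of 21 alternative settings. Of 6 liver markers 5 rose with 2-HD and 1 in the knockout, beside 22.7% and 4.10% of all tested genes. The summed level of these markers ran from 1446 to 2375 CPM in wild type, 1988 to 2538 CPM in the knockout and 3235 to 3969 CPM with 2-HD. Their part in the creb3l3 values was not tested.

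Outside the cell, the genes of propeptide processing include the proteases that trim procollagen and their enhancers. Of 7 genes 2 rose with 2-HD (bmp1a and pcolcea), which was 28.6% beside 22.7% of all tested genes, and 1 in the knockout (pcolcea), which was 14.3% beside 4.10%, and the group's median was 0.25 with 2-HD and -0.08 in the knockout. The procollagen C-proteinase gene bmp1a, whose zebrafish mutants have ruffled fins, was at 60.9, 60.4, 59.9, 52.1 and 54.8 CPM in wild type, 50.8, 62.2 and 62.6 CPM in the knockout, and 74.2, 66.5, 68.0, 63.8 and 61.5 CPM with 2-HD. The 2-HD libraries were above wild type by a small step, 1.16-fold (log2 0.21 ± 0.08, adjusted p = 0.0366), and the call was lost in 10 of 21 alternative settings. Procollagen C-proteinase enhancer, from pcolcea, speeds that cleavage and was at 14.9, 15.4, 16.2, 12.5 and 20.0 CPM, then 17.7, 27.6 and 28.7 CPM, then 25.3, 21.5, 20.9, 21.3 and 17.6 CPM. Knockout library 2 and 2-HD library 5 lay inside the wild-type range, and the fitted rises were 0.65 ± 0.16 in the knockout (adjusted p = 0.0373) and 0.43 ± 0.15 with 2-HD (adjusted p = 0.0266). The knockout call of pcolcea was lost in 9 of 21 alternative settings and its 2-HD call in 6, the latter including those without wild-type library 10, 13 or 3 or 2-HD library 1. Values of bmp1b, tll1, pcolceb, pcolce2a and pcolce2b ranged from -0.35 to 0.60 in the knockout and from -0.35 to 0.62 with 2-HD, and none of the 5 was called.

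Within the SPARC family, collagen-binding matrix glycoproteins, the members went in opposite directions with 2-HD. The values of sparc, which is strongly expressed by bone and skin cells, were 621, 532, 620.0, 575 and 653 CPM in wild type, 608, 693 and 745 CPM in the knockout, and 799, 767, 866, 885 and 681 CPM with 2-HD. All 2-HD libraries lay above wild type, at 1.33-fold (log2 0.41 ± 0.08, adjusted p = 0.0014), and the knockout overlapped both other groups (0.18 ± 0.10, adjusted p = 0.257). The related sparcl1, in mammals abundant in brain and vessels, was at 32.5, 41.9, 35.4, 36.9 and 32.0 CPM, then 30.4, 31.2 and 32.4 CPM, then 31.6, 28.0, 25.8, 29.1 and 28.8 CPM. It was the 1 gene of the set that fell with 2-HD, by 0.32 on the log2 scale (SE 0.08, adjusted p = 0.00579), with all 2-HD libraries below wild type. All 7 neuronal markers also fell with 2-HD and 2 of them in the knockout, beside 19.7% and 1.86% of all tested genes. Their summed levels were 2405 to 2605 CPM in wild type, 2030 to 2180 CPM in the knockout and 1479 to 1891 CPM with 2-HD. The part of these markers in the sparcl1 value was not tested. The third member, sparcl2, was at 0.734 ± 0.245 CPM in wild type and was not called.

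Lysyl oxidases oxidise lysine and hydroxylysine to the aldehydes from which crosslinks form. Of 8 tested genes 5 rose with 2-HD (loxa, loxl1, loxl2a, loxl2b and loxl4), which was 62.5% beside 22.7% of all tested genes. In the knockout edgeR and DESeq2 called 0, and 2 had an unadjusted p under 0.05. The founding enzyme of the family is encoded by loxa, at 2.57, 2.68, 4.04, 2.42 and 2.34 CPM in wild type, 2.77, 4.10 and 3.91 CPM in the knockout, and 8.67, 5.72, 6.63, 7.84 and 4.21 CPM with 2-HD. The 2-HD libraries were above all others, although library 5 only by a little, and the rise was 2.35-fold (log2 1.23 ± 0.21, adjusted p = 0.000368). LOXL2 is known in mammals for crosslinking type IV collagen of basement membranes. Its copy loxl2a was at 6.20, 12.2, 10.3, 6.50 and 8.05 CPM, then 8.40, 11.5 and 12.5 CPM, then 16.1, 24.8, 22.8, 21.7 and 17.0 CPM, and loxl2b was at 17.6, 19.9, 22.2, 20.0 and 25.0 CPM, then 24.0, 28.1 and 27.6 CPM, then 35.9, 41.5, 42.7, 41.5 and 31.5 CPM. In both copies no 2-HD library overlapped another group. The rises with 2-HD were 2.37-fold (1.24 ± 0.19, adjusted p = 0.000176) and 1.84-fold (0.88 ± 0.11, adjusted p = 5.76e-05), and the knockout differences of 0.32 ± 0.22 and 0.34 ± 0.12 were not called (adjusted p = 0.391 and 0.0952).

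The elastin-linked loxl1 changed least of the 5 that rose, at 32.6, 31.0, 32.7, 30.1 and 37.8 CPM in wild type, 35.1, 35.8 and 36.7 CPM in the knockout, and 45.0, 36.7, 40.0, 39.0 and 31.9 CPM with 2-HD. Its groups overlapped, and the call with 2-HD (0.23 ± 0.09, adjusted p = 0.049) was lost in 17 of 21 alternative settings. The level of loxl4 rose from 2.76 ± 0.922 CPM in wild type to 5.48 ± 0.719 CPM with 2-HD (0.99 ± 0.20, adjusted p = 0.00153), and the knockout stood between at 4.08 ± 0.793 CPM and was not called. The genes loxl3a, loxl3b and loxl5b were not called. In zebrafish loxl5b is known from the notochord, and its fitted values were -0.84 ± 0.46 in the knockout and -0.67 ± 0.39 with 2-HD, with libraries from 0.595 to 6.37 CPM.

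Transglutaminases join proteins through glutamine and lysine side chains, in matrix for Tgm2 and in the cornified layer of mammalian skin for Tgm1, and only part of this group bears on collagen. Of 9 tested genes 2 rose with 2-HD (tgm1l3 and tgm1l4), which was 22.2% beside 22.7% of all tested genes. In the knockout 1 rose (tgm1l3), which was 11.1% beside 4.10%. The related tgm1, tgm1l1 and tgm1l2 were called in neither, with log2 values of 0.36, 0.05 and -0.03 with 2-HD. By value only, tgm5l was lower with 2-HD, at 1.93 ± 0.221 CPM against 3.86 ± 3.17 CPM in wild type (edgeR adjusted p = 0.0533). With 2-HD, DESeq2 called 2 of the group higher and 1 lower, beside 4779 and 4675 of all 22158 tested genes. Those 2-HD counts are not read as a response of the group. The values of tgm1l3 were 12.4, 14.8, 15.6, 20.2 and 19.5 CPM in wild type, 28.3, 25.3 and 40.2 CPM in the knockout, and 36.1, 36.7, 27.0, 35.5 and 22.0 CPM with 2-HD. Both groups were above wild type and overlapped each other, with rises of 0.92 ± 0.20 in the knockout (adjusted p = 0.0217) and 0.93 ± 0.17 with 2-HD (adjusted p = 0.000771). For tgm1l4 the values were 2.01, 2.84, 1.39, 3.01 and 2.83 CPM, then 2.82, 3.69 and 3.86 CPM, then 2.68, 5.52, 3.74, 4.67 and 3.47 CPM, with overlapping groups, a rise of 0.73 ± 0.23 with 2-HD (adjusted p = 0.018) and a call that was lost without 2-HD library 2. Tissue transglutaminase, from tgm2a, was at 45.9, 42.7, 37.5, 41.8 and 64.2 CPM, then 59.6, 41.1 and 38.8 CPM, then 39.2, 59.1, 65.1, 60.6 and 62.0 CPM. Its groups overlapped, and neither the knockout (0.00 ± 0.19) nor 2-HD (0.30 ± 0.17, adjusted p = 0.156) was called, although the 2-HD difference was called without wild-type library 5 or without 2-HD library 1. Of 10 epidermal markers 4 rose in the knockout, and 5 rose and 2 fell with 2-HD. The shares of all tested genes were 4.10%, 22.7% and 19.7% in the same order. The summed level of these markers ran from 17428 to 20913 CPM in wild type, 17074 to 23922 CPM in the knockout and 14444 to 19965 CPM with 2-HD. Their part in the tgm1l3 and tgm1l4 values was not tested.

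The 5 genes that did not pass the filter were loxl5a, tgm8, bmp10, bmp10l and bmp15, with at most 8 counts in any library. The 3 tested genes of those set apart, bmp16, loxhd1a and loxhd1b, stood between -0.20 and 0.28 in both comparisons with wild type. Of these 3, edgeR and DESeq2 called 0, as did an unadjusted p under 0.05.

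Compared directly, the knockout was lower than 2-HD in 11 of the 63 genes and higher in 1, against 3.06% of all tested genes that were lower and 3.93% that were higher, 6.98% in all. The 11 were p4ha1a, p4ha1b, crtap, ppib, fkbp7, fkbp9, fkbp10b, creb3l3b, loxa, loxl2a and loxl2b, and the 1 was creb3l3l. The median was -0.23, against -0.02 over all tested genes. Knockout libraries stood apart below the 2-HD libraries for 17 genes and above them for 2, where 8.82% and 8.97% of all genes stood apart. In loxl2a the difference was -0.92 ± 0.22 (edgeR adjusted p = 0.0251), a level 1.90-fold lower in the knockout. In fkbp9 it was -0.88 ± 0.19 (adjusted p = 0.0186), in loxa -0.88 ± 0.24 (adjusted p = 0.042), and in p4ha1b -0.86 ± 0.20 (adjusted p = 0.0223). The smallest of the 11 was in ppib, at -0.41 ± 0.09 (adjusted p = 0.021), where the knockout and 2-HD lay on opposite sides of wild type. In creb3l3l the knockout was 0.26 ± 0.07 higher (adjusted p = 0.0469), a call that was lost in 15 of 21 alternative settings. The count of these calls also changed when single libraries were left out. It was 0 without knockout library 2, 0 without knockout library 3 and 2 without knockout library 7. Over all genes these 3 fits called 231, 81 and 409, in place of 1547. The count was 4 without 2-HD library 4, 5 without 2-HD library 3, 6 without 2-HD library 2 and 16 without 2-HD library 1.

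**Figure D3:**
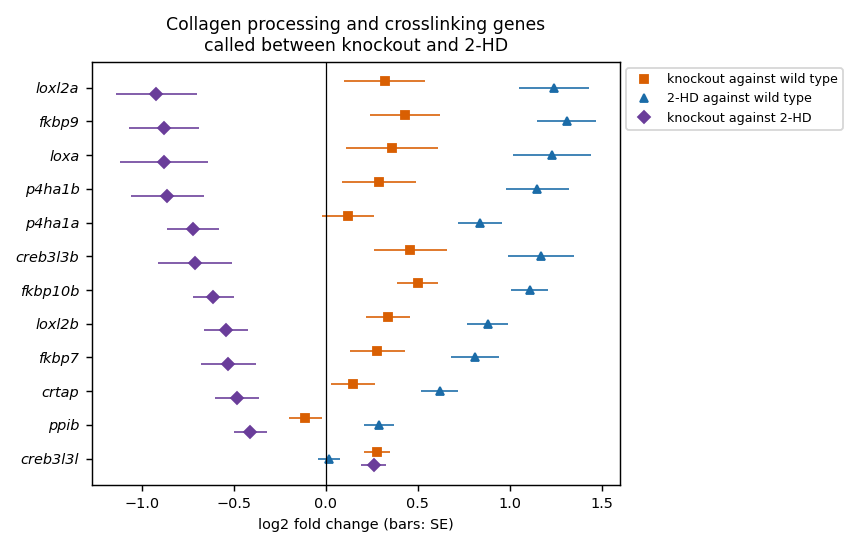
Fitted log2 fold changes (x axis, bars are the SE) of the 12 genes called between knockout and 2-HD, for knockout against wild type (squares), 2-HD against wild type (triangles) and knockout against 2-HD (diamonds). The knockout squares lie between 0 and the 2-HD triangles for 10 of the 11 genes lower in the knockout, and ppib is the exception at -0.11.

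Most substrate genes of these enzymes rose with 2-HD as well. Over all tested genes 22.7% rose with 2-HD and 4.10% in the knockout. Of 15 fibrillar collagen chain genes measured, 14 rose with 2-HD (median log2 0.69) and 1, col11a1b, rose in the knockout (median 0.24). That count of 1 is not read as a response of the fibrillar chains. The bone and skin chain gene col1a1a went from 1281 ± 152 CPM in wild type to 2438 ± 308 CPM with 2-HD (log2 0.93 ± 0.13, adjusted p = 9.91e-05) and stood at 1782 ± 417 CPM in the knockout (0.48 ± 0.14, adjusted p = 0.0615). The cartilage chain gene col2a1b rose by 0.68 with 2-HD and col11a1b by 0.70. Summed over the 15 chains, the level was 5951 ± 547 CPM in wild type, 6941 ± 974 CPM in the knockout and 8920 ± 688 CPM with 2-HD. Of 6 type IV chain genes, which form basement membranes, 5 rose with 2-HD and 3 in the knockout. The largest of these by fold with 2-HD was col4a1, at 1.21 ± 0.18 (adjusted p = 0.000149) and, in the knockout, 0.71 ± 0.20 (adjusted p = 0.0492).

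Set against fibrillar chains, all genes of the named roles together had a lower ratio with 2-HD than in wild type, but the roles differed. The chaperone ratio was higher. The prolyl 4-hydroxylase, lysyl hydroxylase and lysyl oxidase ratios had means close to those of wild type. Counts of each role were summed in a library and divided by the summed fibrillar chain counts, which weights each gene by its counts and is given without a test. All 62 genes of the named roles had 312 ± 11.8 counts per 1000 chain counts in wild type, 306 ± 32.1 in the knockout and 278 ± 14.3 with 2-HD, and the 2-HD libraries, 258 to 299, lay below the wild-type ones, 301 to 328. The SPARC family, which are matrix glycoproteins, held 107 ± 6.74 of these in wild type and 92.8 ± 3.74 with 2-HD. Prolyl 4-hydroxylase genes had 24.5 ± 1.37 counts per 1000 chain counts in wild type, 25.6 ± 3.42 in the knockout and 25.5 ± 3.43 with 2-HD. Prolyl 3-hydroxylase complex genes had 39.3 ± 3.34, 33.2 ± 4.41 and 33.5 ± 3.71, with overlapping libraries. Most of this role was ppib, at a mean of 195 CPM in wild type and 238 CPM with 2-HD. The role sums were 234 and 297 CPM, and a ratio without ppib was not computed. For lysyl hydroxylases and glycosyltransferases the ratios were 12.6 ± 1.07, 14.0 ± 1.80 and 12.7 ± 1.11, and for lysyl oxidases 15.7 ± 1.15, 15.1 ± 1.65 and 15.1 ± 0.587. The ER chaperones had 13.3 ± 2.52 in wild type, 18.2 ± 3.73 in the knockout and 20.0 ± 2.79 with 2-HD, and the 2-HD libraries, 15.7 to 22.9, overlapped the wild-type ones, 10.1 to 16.1, at 1 end. Much of that difference was serpinh1b, since without it the ratios were 8.51 ± 0.636, 9.30 ± 1.21 and 10.3 ± 1.44. Export genes had means of 32.2 in wild type, 28.9 ± 4.07 in the knockout and 24.8 ± 2.64 with 2-HD, and propeptide genes 18.1 ± 1.89, 16.6 ± 0.712 and 14.1 ± 0.398. In both of these the 2-HD libraries lay wholly below the wild-type ones, at 23.0 to 29.4 against 31.0 to 33.9 and at 13.4 to 14.5 against 15.9 to 20.5. The same held for the transcription factors, at means of 16.8 and 21.3, and for the SPARC family, at 89.4 to 98.7 against 99.8 to 117. The summed levels of these roles were not lower with 2-HD. Their means in wild type and with 2-HD were 191 and 220 CPM for export genes and 107 and 126 CPM for propeptide genes. They were 126 and 150 CPM for transcription factors and 637 and 829 CPM for the SPARC family, beside 5951 and 8920 CPM for the chains. Most of the transcription factor sum was creb3l3l, which is of a kind not known for collagen, at 86.3 and 87.7 CPM. A ratio without creb3l3l was not computed, so the lower ratio is not read as one of the other 4 genes. Transglutaminase libraries, at 20.5 to 25.0 with 2-HD and 24.8 to 34.8 in wild type, overlapped.

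**Figure D4:**
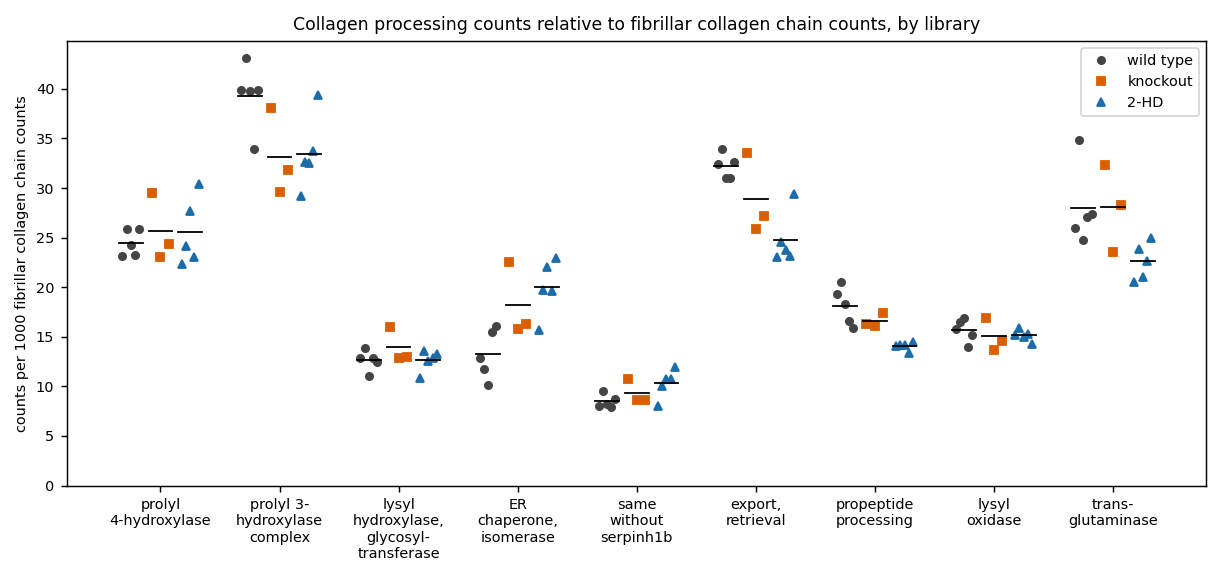
Counts of each role shown per 1000 fibrillar collagen chain counts (y axis, linear from 0) in each of the 13 libraries, with the group mean as a line. The SPARC family and the transcription factors are not drawn, and the chaperones are drawn with and without serpinh1b. The chaperone ratio is highest with 2-HD, at a mean of 20.0 against 13.3 in wild type, and the export and propeptide ratios, among others, are lower with 2-HD than in wild type, at means of 24.8 and 14.1.

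Other genes of the pathway gave a mixed picture. Over all tested genes 22.7% rose and 19.7% fell with 2-HD, and 4.10% rose and 1.86% fell in the knockout. With so few genes, the export coat, N-propeptidase, proline and hypoxia counts below are not read as a response of those lists. General ER folding genes, which serve all secreted proteins, had 14 of 20 higher and 1 lower with 2-HD (median 0.38), and 1 lower in the knockout. That 1 was ppic, a cyclophilin gene, which fell in both, by 0.39 in the knockout (edgeR adjusted p = 0.0468) and by 0.55 with 2-HD (adjusted p = 0.00035). The ER chaperone gene hsp90b1 rose by 0.82 ± 0.15 with 2-HD (adjusted p = 0.000681). Of 17 genes of the export coat and its regulators 5 rose and 1 fell with 2-HD, and in the knockout edgeR and DESeq2 called 0, with 3 higher and 1 lower at an unadjusted p under 0.05. Among them sec24d, a coat subunit that zebrafish cartilage needs, rose from 22.7 ± 3.83 to 46.6 ± 5.20 CPM with 2-HD (1.04 ± 0.12, adjusted p = 5.34e-05), and sec31a rose by 0.55. The N-propeptidase list had 2 higher (adamts3 and adamts14) and 1 lower (mep1b) of 4 with 2-HD, and in the knockout 0 were called by edgeR or DESeq2 and 0 had an unadjusted p under 0.05. Of 7 tested genes of proline metabolism 2 rose in the knockout (pycr1a and pycr3), and 1 rose (pycr3) and 1 fell (prodhb) with 2-HD. An enzyme of the last step of proline synthesis, pycr3, rose by 0.75 ± 0.18 in the knockout (adjusted p = 0.0291) and by 0.44 ± 0.16 with 2-HD (adjusted p = 0.0341). The proline dehydrogenase gene prodhb fell by 0.93 with 2-HD (adjusted p = 0.00148). Another gene for that step, pycr1a, rose 1.51 ± 0.23 in the knockout (adjusted p = 0.0101) and was not called with 2-HD (0.35 ± 0.21, adjusted p = 0.199), and the direct difference of 1.15 ± 0.23 was called (adjusted p = 0.0159). Of 8 tested hypoxia genes 3 rose with 2-HD, among them epas1a (1.02 ± 0.16, adjusted p = 0.000248) and egln3 (1.34 ± 0.22, adjusted p = 0.000293), and in the knockout epas1a rose by 0.72 while hif1aa fell by 0.51.

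**Figure D5:**
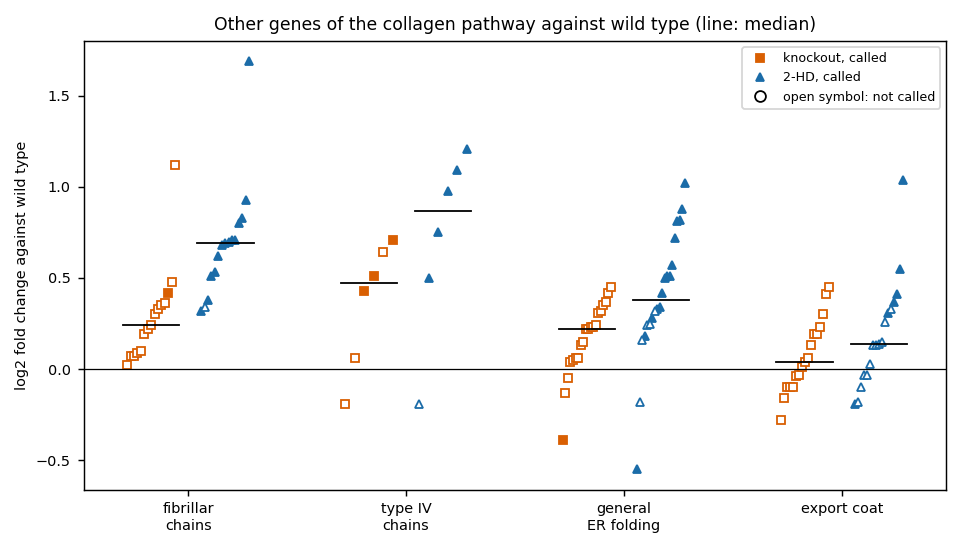
Fitted log2 fold change against wild type (y axis) of each tested gene of 4 lists, sorted within a list, in the knockout (squares) and with 2-HD (triangles), filled where called, with the list median as a line. With 2-HD the medians are 0.69 for fibrillar chains, 0.86 for type IV chains, 0.38 for general ER folding and 0.14 for the export coat.

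Markers of cells that make collagen were called in part, and so were those of other cells. Over all tested genes 22.7% rose and 19.7% fell with 2-HD, and 4.10% rose in the knockout. With 2-HD 5 of 6 tested osteoblast markers, 8 of 12 skin fibroblast and tenocyte markers and 4 of 9 chondrocyte markers rose, and of 7 notochord markers 0 rose and 2 fell. In the knockout 2 osteoblast, 3 fibroblast and tenocyte and 1 chondrocyte markers rose. Of cells that are not main makers of collagen, 4 of 7 leukocyte, 4 of 5 blood and 3 of 6 endothelial markers rose with 2-HD by edgeR. DESeq2 called 4, 4 and 1 of these higher, beside 4779 of all 22158 tested genes. At an unadjusted p under 0.05 by edgeR, 1 endothelial marker was lower with 2-HD. In the knockout edgeR called 1, 0 and 0 higher, DESeq2 called 1, 1 and 0 and an unadjusted p under 0.05 gave 3, 1 and 1 higher. Summed fibroblast and tenocyte markers ran from 593 to 707 CPM in wild type, 746 to 882 CPM in the knockout and 862 to 1007 CPM with 2-HD, so neither group overlapped wild type. Summed osteoblast markers ran from 34.3 to 42.9 CPM, 34.6 to 54.4 CPM and 45.7 to 56.4 CPM. The defining osteoblast genes sp7 and ifitm5 were low but present, bglap stood at 0 to 0.0578 CPM in wild type, and sp7 rose from 1.05 ± 0.303 CPM to 2.56 ± 0.654 CPM in the knockout (1.28 ± 0.25, adjusted p = 0.0155) and 2.30 ± 0.377 CPM with 2-HD (1.13 ± 0.22, adjusted p = 0.00106). The part of these markers in the values of the collagen genes was not tested.

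In gene order on the GRCz12tu assembly, p3h4 stands next to fkbp10a and crtap next to fkbp9, with 0 protein-coding genes between the members of each pair. In the first pair p3h4 rose in the knockout and fkbp10a was not called (log2 0.33 ± 0.13, adjusted p = 0.127). Of the 68 genes, kdelr2a and kdelr3 lie on the chromosome of aldh3b1, and 0 are among the 200 measured genes nearest to it.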

How the data were processed

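RNA of whole larvae was sequenced in 13 libraries. The values deposited are raw gene counts, whole numbers without scaling. Reads were trimmed, aligned to build GRCz11 and counted with HISAT2 2.2.1, featureCounts 2.0.1 and Trim Galore 0.6.7, per the submitters' processing notes. The annotation, strand setting and treatment of multiply mapped reads are not given in the sources used here, so values of paralogues and of overlapping or antisense genes are uncertain. One wild-type sample is number 1 by title and 3 by description, and the description, which matches its column, was followed.

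The tool was edgeR 4.0.16 (R 4.3.3). filterByExpr with a minimum count of 10 left 22158 genes. TMM factors scaled library sizes, and 1 quasi-likelihood fit of 3 group means to all 13 libraries gave the 3 comparisons. The biological coefficient of variation was 0.151. Calls needed an adjusted p under 0.05, by Benjamini-Hochberg over the 22158 genes. Errors of levels are SDs, and those of log2 fold changes are SEs from the fitted value and its F statistic. The steps were tested on simulated counts. Of genes changed 1.5-fold there, 42.5% were called in knockout against wild type and 65.7% in 2-HD against wild type. Of genes changed 2-fold, 81.8% and 85.5% were called. Each simulation changed 200 genes, far fewer than the 9398 called with 2-HD in the data. The adjusted limit was therefore not the same, and these shares are not detection rates of the real comparisons.

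Between libraries of 1 group, chi-square divided by its degrees of freedom was 4.81 to 25.5, above sampling noise, so none was a duplicate. Alternatives were RLE factors, library totals, no filter or at least 1 CPM in 3 libraries, the compared groups alone, a replicate block, each library left out, wild-type 14 with 2-HD 1 left out, and DESeq2 1.42.0. The chaperone ratio without serpinh1b was added after its values were seen. The genes and lists were chosen with earlier results of these data known. Values in every library are given, in each role but the genes set apart, for the 2 genes with the smallest p against wild type. They are also given for the gene with the highest mean CPM, and for each gene called in the knockout against wild type or 2-HD. Up to 3 genes with the smallest p are named per pathway list, and sp7 and ifitm5, as defining markers, and hif1aa were named after their values were seen. Sequences were not used here.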

Additional observations from a re-analysis of the deposited data

Results flagged for a closer look

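In groups of 5 libraries, 8 of 126 gene and group combinations had 1 library far from the other 4, with a gap above Dixon's 95% limit of 0.71 of the group's range, and chance alone gives about 1 in 20. Groups of 3 were not examined. In 2-HD library 3, p4ha1b was at 25.5 CPM beside 15.4 to 16.3 CPM in the others. In 2-HD library 1, loxl3a was at 5.83 CPM beside 1.49 to 1.96 CPM, pcolce2a at 2.22 CPM beside 1.29 to 1.55 CPM, and tgm2a was low at 39.2 CPM beside 59.1 to 65.1 CPM. In wild-type library 5, p3h4 was at 5.17 CPM beside 3.85 to 4.22 CPM and serpinh1a at 22.5 CPM beside 15.1 to 17.1 CPM. In wild-type library 14, loxa was at 4.04 CPM beside 2.34 to 2.68 CPM, and in wild-type library 13, tgm5l was at 9.48 CPM beside 2.12 to 3.22 CPM.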

How the results depend on the processing

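No called value of a gene named with its library values reversed its direction in these alternatives. With 2-HD, 18 of the 38 called collagen genes stayed called in every alternative and 32 in every alternative but the replicate block, while of the 7 calls in the knockout and the 12 between knockout and 2-HD 0 stayed called in all. Whether replicate numbers pair the libraries is not stated in the labels. Same-numbered libraries deviated from their group means with correlations of -0.02 to 0.25 and other pairs with -0.30 to 0.44. So few same-numbered pairs cannot decide whether libraries were paired. With the number as a replicate block, collagen genes called were 0 in the knockout, 18 with 2-HD and 1 between them, all genes called were 2, 4230 and 333, and other pathway genes called were 0, 31 and 1. Most numbers occur in 1 library, which then adds nothing to that fit, and knockout and wild type share only number 3. Little is left there to estimate the spread, so calls lost with the block say little about these genes. A fit of knockout and wild type alone called 0 collagen genes, 102 of all genes and 1 pathway gene, in place of 7, 1322 and 9. DESeq2 called 2406 of all genes and 14 pathway genes in the knockout, and 2390 of all genes between knockout and 2-HD. Without wild-type 14 and 2-HD 1, 3494 of all genes and 21 pathway genes were called between knockout and 2-HD, in place of 1547 and 11. Leaving out 1 library gave 0 to 12 collagen genes in the knockout, 34 to 42 with 2-HD and 0 to 16 between them. Over all genes these ranges were 3 to 2071, 8120 to 9968 and 81 to 3229, and over pathway genes 0 to 14, 43 to 53 and 0 to 20. Genes uncalled in the knockout were called without wild-type library 5 (p4hb, plod1a, serpinh1b, loxl2b), wild-type library 3 (creb3l3b) or knockout library 2 (plod1a, colgalt2). Where fewer libraries entered the fit, fewer were available to estimate the spread, and other causes were not tested. At this depth, genes with a few counts per library, such as loxl5a and tgm8, could not be compared.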

Other observations

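The 2 libraries that lay apart on the second principal component were compared gene by gene, a choice made after the data were seen. Wild-type library 14 and 2-HD library 1 were both the lowest of their groups in 11 of the 63 tested genes, or 17.5%, against 9.36% of all tested genes. These were p4ha2, crtap, plod3, serpinh1b, fkbp9, kdelr3, creb3l3b, pcolceb, tgm1l4, tgm2a and tgm2b. They were both the highest in 6 genes, or 9.52%, against 10.2% of all genes, namely p4ha1a, fkbp10a, pcolce2a, loxa, loxl3a and tgm1. Without these 2 libraries, 7 collagen genes were higher and 0 lower in the knockout, 33 higher and 3 lower with 2-HD, and 2 higher and 15 lower between knockout and 2-HD. Over all genes the same fit called 886 higher and 487 lower, 4757 and 4757, and 2035 and 1459, in that order.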
